A study of Mus musculus with 35 samples.

Results

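The comparison described here is the bortezomib response of H77L podocytes minus that of control podocytes, which asks which effects of the drug need the H77L allele and which are common to podocytes of both genotypes. It was computed for each gene on log2(TPM + 1) as (H77L under bortezomib minus H77L under DMSO) minus (control under bortezomib minus control under DMSO) and is called the interaction below. It uses 24 of the 35 mice of the series, 6 in each of 4 groups, and 11163 of the 33292 gene identifiers, those with more than 1 TPM in every mouse of at least 1 group. TPM gives transcript abundance per length and sums to 1000000 in each mouse. H77L mice were Lmx1b H77L/lox and control mice Lmx1b +/lox. The other 11 mice, 6 under DMSO and 5 under bortezomib, were Lmx1b C118F/lox. They took no part in the interaction and are given for comparison. Mice of all groups, C118F included, carried an rtTA transgene active in podocytes, tetO::Cre and the mTmG reporter. They were 7 to 10 weeks old and drank 2 mg/ml doxycycline for 7 days, so that Cre removed the floxed allele in podocytes. Thus H77L and C118F podocytes kept only their mutated allele, and control podocytes kept 1 wild-type allele. Bortezomib at 0.3 µg/g or its solvent DMSO was injected every other day, and green podocytes of single mice were sorted on day 7. The labels call the control mice WT and do not give the sex of the mice.

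Bortezomib blocks the catalytic core of the proteasome, the protease complex that degrades ubiquitin-tagged proteins. Cells under proteasome inhibition are known to induce heat shock chaperones, new proteasome subunits and the unfolded protein response. LMX1B is a LIM-homeodomain transcription factor, and podocytes are the epithelial cells whose foot processes and slit diaphragms hold back plasma protein in the glomerulus. The H77L exchange lies in the first LIM domain, through which LMX1B binds other proteins.

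The libraries of the 24 mice held 14037135 to 24147409 reads, as recovered from the steps between low TPM values. Sums over 10 podocyte markers were 23100 to 39400 TPM in the 12 control mice, 7060 to 12300 in the 6 H77L DMSO mice and 12200 to 16400 in the 6 H77L bortezomib mice. Each of the 10 markers was above 0 in every group. Proximal tubule markers (12 genes) summed to 41.4 to 2020 TPM, endothelial markers (10 genes) to 13.9 to 83.9 TPM and leukocyte markers (12 genes) to 5.67 to 438 TPM, with Ptprc at 0.241 TPM or less. Mesangial and pericyte markers (9 genes, among them Des) summed to 39.0 to 178 TPM in control mice, 598 to 979 in H77L DMSO and 401 to 605 in H77L bortezomib, and parietal cell markers (8 genes) to 63.7 to 128 TPM in control mice, 172 to 346 in H77L DMSO and 146 to 182 in H77L bortezomib. In the interaction 2 of 4 tested mesangial markers (median −0.71) and 2 of 4 parietal markers (median −0.38) were below 0 at an unadjusted p under 0.05. Xist was above 0 in all 24 mice, from 8.65 to 38.1 TPM, and Ddx3y was at most 0.308 TPM. With Xist or with the proximal tubule markers as a covariate, 7 and 6 genes instead of 0 had an adjusted p under 0.05 in the interaction. The part of the other markers was not tested. In sorted bulk samples, fewer cells of a type and less RNA per cell cannot be told apart.

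No gene passed an adjusted p of 0.05 in the interaction (limma, Benjamini-Hochberg over 11163 genes). The lowest adjusted p was 0.0564. At an unadjusted p under 0.05 the limma fit held 2037 genes, 18.2% of those tested, of which 1058 (9.48%) had an interaction above 0 and 979 (8.77%) below 0. The count model voom on the recovered reads called 0 genes as well and had 2045 at an unadjusted p under 0.05. Below an adjusted p of 0.1 there were 250 genes (2.24%), 143 above 0 (1.28%) and 107 below 0 (0.959%). That number ran from 0 (without control DMSO replicate 6 or control bortezomib replicate 6) to 1050 (without control bortezomib replicate 1), and it was 16 with mouse number as a covariate and 0 with no filter, with all 35 mice or with the length slope or immediate early genes as a covariate, so passages on the 250 genes describe 1 fit. At an adjusted p under 0.05 the number of genes was 275 without control bortezomib replicate 1, 199 without control DMSO replicate 5 and 18 without H77L DMSO replicate 5. It was 1 to 4 in 10 of the other fits that left out 1 mouse, and 0 in 11.

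**Figure D1:**
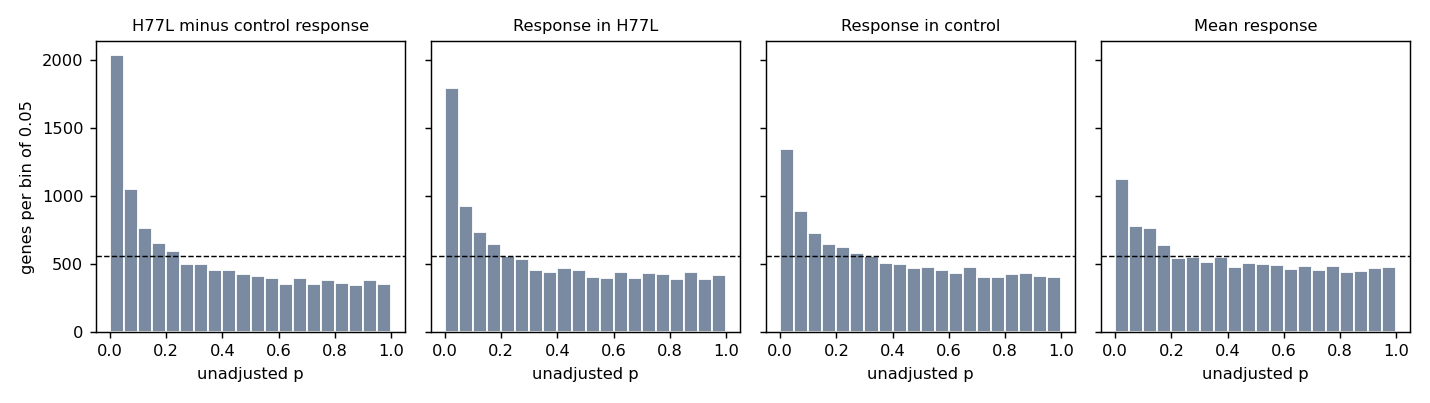
Number of genes (vertical axis) in each bin of 0.05 of the unadjusted limma p (horizontal axis) for the interaction, the response in H77L, the response in control and the mean of both responses. The dashed line marks an equal number of genes in every bin, and the first bins hold 2037, 1798, 1347 and 1127 genes.

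Taken alone, the response in H77L mice had 150 genes at an adjusted p under 0.05 (1.34%), 51 higher (0.457%) and 99 lower (0.887%) under bortezomib, while the response in control mice had 0 (1347 at an unadjusted p under 0.05, 12.1%, and 0 with voom). In H77L mice 1798 genes (16.1%) had an unadjusted p under 0.05. A call in 1 genotype and not in the other is no test of a difference, and the interaction, which is that test, had no call. Of the 150 genes, 8 kept an adjusted p under 0.05 in each of the 24 fits without 1 mouse, among them Itga5, Crct1, Spire2 and Sowahd, and 39 did so in at least 20 fits. The number called in H77L was 9 without H77L bortezomib replicate 3, 19 without H77L DMSO replicate 6, 21 without H77L bortezomib replicate 6 and 22 without H77L DMSO replicate 4. It was 47, 52 and 73 without H77L bortezomib replicate 4, H77L DMSO replicate 2 and H77L bortezomib replicate 2, and 234 without H77L DMSO replicate 5. Genes at an adjusted p under 0.1 in the interaction mostly moved in opposite directions in the 2 genotypes. Fitted responses had opposite signs for 143 of 143 genes above 0 and for 106 of 107 genes below 0. Since those genes were selected on the difference, this is a description. In 79 of the 143 and in 68 of the 107, the H77L response was the larger part.

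**Figure D2:**
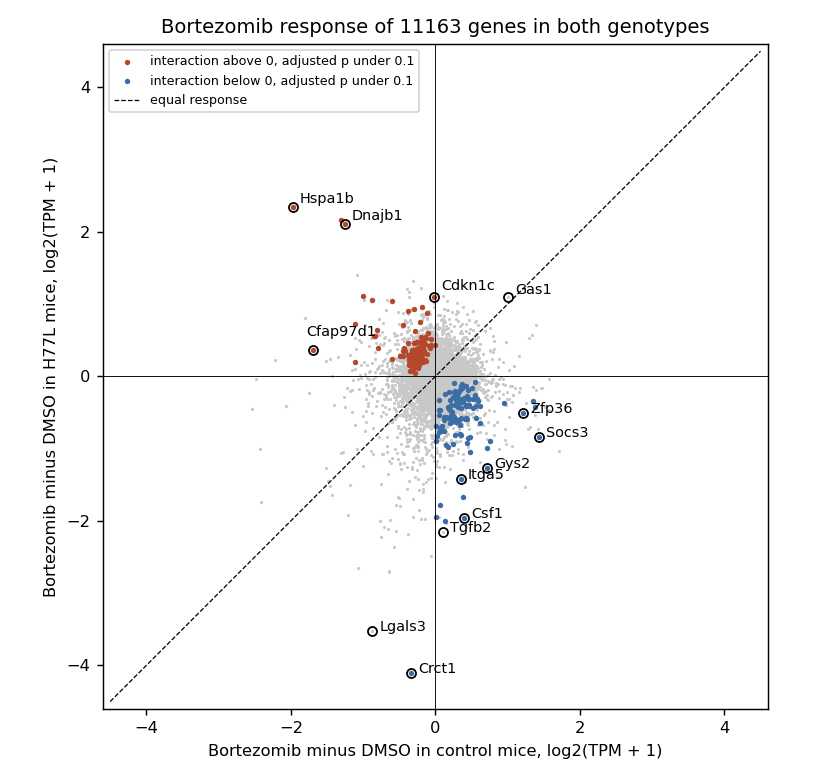
Each point is 1 of 11163 genes, with its bortezomib minus DMSO difference in control mice on the horizontal axis and in H77L mice on the vertical axis, both on log2(TPM + 1). Coloured points are the 143 genes above 0 (red) and the 107 below 0 (blue) at an interaction adjusted p under 0.1, and circles mark genes named in the text. The coloured genes lie in the upper left and lower right, away from the dashed line of equal response, on which Gas1 lies.

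The gene of lowest p was Itga5, the integrin alpha 5 chain of the fibronectin receptor (chr15:103252713-103275270, GRCm39). Itga5 stood at 7.92, 10.7 and 12.4 TPM (lowest, median and highest of 6 mice) in control DMSO, and at 10.8, 13.6 and 18.5 in control bortezomib. In H77L mice it stood at 36.7, 60.1 and 135 TPM under DMSO and at 21.2, 22.7 and 27.9 under bortezomib. All 6 H77L mice given bortezomib were below all 6 given DMSO and still above every control mouse, while the control groups overlapped. Most genes named here and below were picked for a low interaction p. Groups that do not overlap describe such genes and add no support to the interaction. The share of all genes tested with such groups was not counted. The interaction of Itga5 was −1.77 (standard error 0.31, 95% interval −2.40 to −1.13, adjusted p = 0.0564, limma). Its H77L part was −1.41 (adjusted p = 0.00488) and its control part 0.35 (unadjusted p = 0.119).

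Csf1, the growth factor of macrophages, had the same form. Its levels in TPM (lowest, median, highest) were 1.58, 2.87 and 5.24 in control DMSO, 2.37, 4.04 and 7.77 in control bortezomib, 20.8, 53.3 and 141 in H77L DMSO, and 7.63, 13.8 and 21.1 in H77L bortezomib. Of the 6 H77L mice given bortezomib, 5 were below all 6 given DMSO. The interaction was −2.36 ± 0.52 (standard error, adjusted p = 0.0814), with an H77L part of −1.96 (adjusted p = 0.0142, and 0.0501 without H77L bortezomib replicate 3) and a control part of 0.40. Gys2, the liver form of glycogen synthase, was at a median of 0 TPM in control DMSO and 0.606 TPM in control bortezomib, against 16.0 TPM in H77L DMSO and 6.01 TPM in H77L bortezomib. The H77L groups of Gys2 did not overlap, its interaction was −1.98 ± 0.39 (adjusted p = 0.0564), and the highest control mouse reached 3.28 TPM.

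The next 4 genes of this direction, at an adjusted p of 0.0648 to 0.0814, had smaller differences. Washc5, a subunit of the endosomal WASH complex, had medians of 38.3 and 45.5 TPM in control mice (DMSO, bortezomib) and 94.3 and 66.6 TPM in H77L mice, with an interaction of −0.80. Esyt2, which tethers the endoplasmic reticulum to the plasma membrane, had medians of 56.8 and 70.2 TPM in control and 150 and 111 TPM in H77L mice, with an interaction of −0.67. In both genes the H77L groups did not overlap and the control groups did. Slc39a10, a zinc importer, had an interaction of −1.26 with medians of 15 and 21 TPM in control and 30.1 and 19.2 TPM in H77L mice. Rbm33, an RNA-binding protein, had an interaction of −0.97, and its medians were 6.42 and 9.22 TPM in control and 11.5 and 8.48 TPM in H77L mice. For the last 2 genes the control part was 0.62 and 0.57 and the H77L part −0.64 and −0.41.

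For Socs3 and H1f2 the control part was the larger. Socs3, the feedback inhibitor of cytokine receptors that signal through STAT3, had 145, 278 and 661 TPM in control DMSO and 579, 723 and 1320 TPM in control bortezomib. In H77L mice it had 1240, 1520 and 1710 TPM under DMSO and 405, 866 and 1860 TPM under bortezomib. Under bortezomib 5 of 6 H77L mice were below all DMSO mice and 1 was above them. The interaction of Socs3 was −2.27 ± 0.45 (adjusted p = 0.0564), made of −0.84 in H77L and 1.43 in control. H1f2, a linker histone, had medians of 475 and 667 TPM in control and 582 and 450 TPM in H77L mice, with an interaction of −0.83 (adjusted p = 0.0564).

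**Figure D3:**
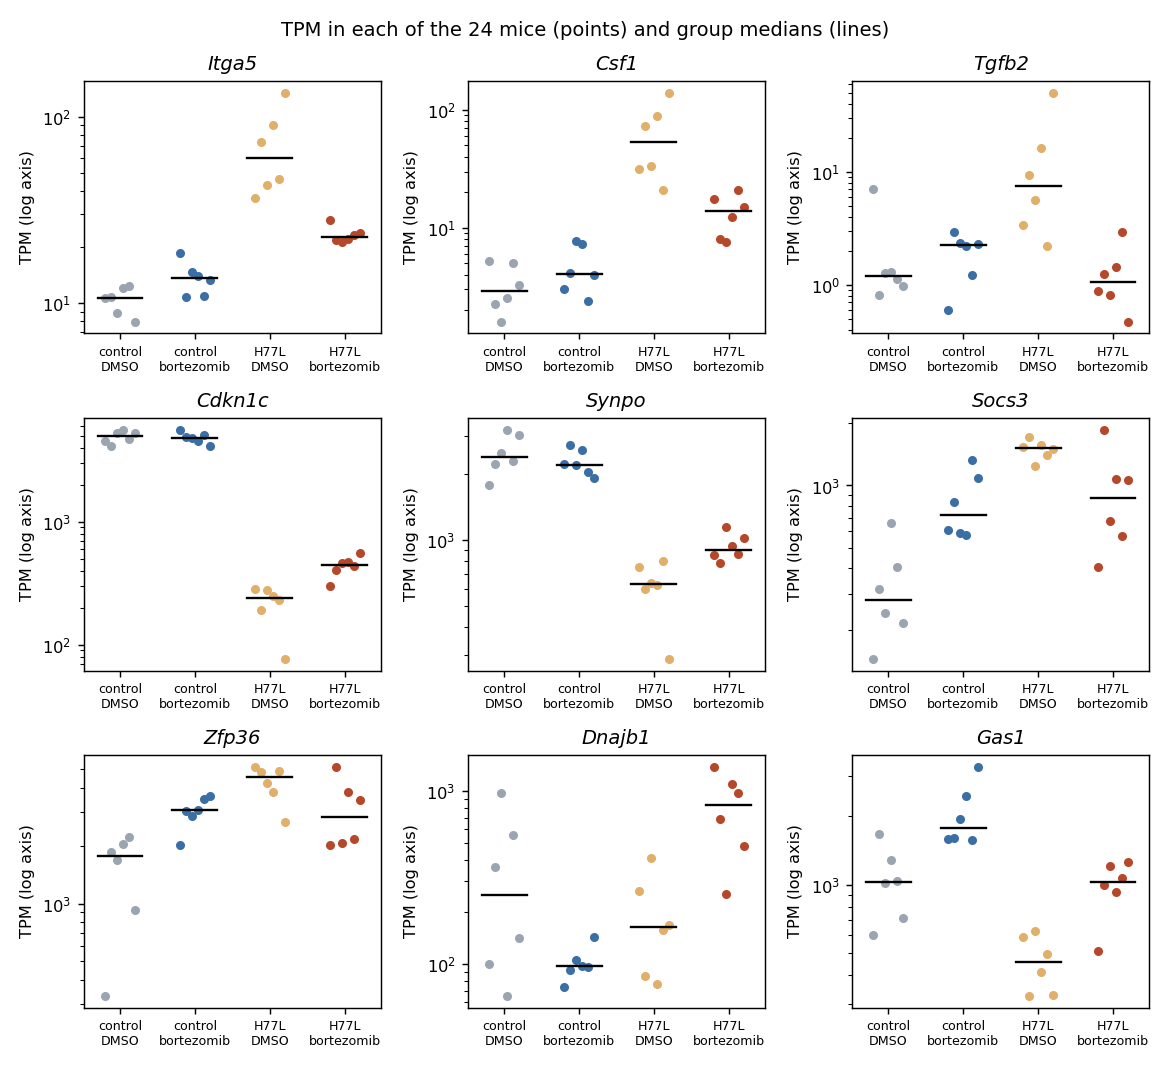
TPM on a log axis of 9 genes in each of the 24 mice, by group, with a line at the group median. For Itga5 the H77L bortezomib mice lie at 21.2 to 27.9 TPM between the H77L DMSO mice and the controls, for Cdkn1c at 300 to 557 TPM above every H77L DMSO mouse and below every control mouse, and for Dnajb1 at 252 to 1380 TPM above every control bortezomib mouse.

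Ndufs7, a subunit of respiratory complex I, had medians of 233 and 197 TPM in control and 145 and 181 TPM in H77L mice, and its interaction was 0.57 (adjusted p = 0.0648). Tufm, the mitochondrial elongation factor, had an interaction of 0.59 (adjusted p = 0.0814).

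At the same adjusted p of 0.0814 stood Usp46, a deubiquitinase, with 0.57, Svip, an inhibitor of endoplasmic reticulum-associated degradation that binds VCP, with 0.52, Eif3h, a subunit of translation initiation factor 3, with 0.50, and Tmed1, a cargo receptor of the early secretory pathway, with 0.49. In H77L mice Usp46 had 27.7, 32.5 and 35.2 TPM under DMSO and 38.2, 43.1 and 45.0 TPM under bortezomib. For Ndufs7, Usp46, Svip and Eif3h the H77L bortezomib mice were all above the H77L DMSO mice, and the control groups overlapped. This describes genes picked for a low interaction p. Cfap97d1, a gene of sperm flagella, differed in control mice, with 3.07 to 8.43 TPM in control DMSO and 0 to 2.78 TPM in control bortezomib, and with 0 to 1.43 TPM in all 12 H77L mice (interaction 2.06, adjusted p = 0.0814). Among the 10 genes of lowest p in each direction, 2 were predicted genes without a symbol.

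The largest interaction at an adjusted p under 0.1 was that of Hspa1b, a heat shock gene. The 250 bases before the start of Dnajb1, Hspa1a and Hspa1b are shown because all 3 chaperone genes were above 0 at an adjusted p under 0.1 and the last 2 are near-identical copies (RefSeq, GRCm38.p6). Capitals mark paired units of a heat shock element, GAANNTTC or TTCNNGAA, each its own reverse complement, so that both strands were searched. The windows are chr8:83607925-83608174 (plus strand), chr17:34972157-34972406 (minus strand) and chr17:34959239-34959488 (minus strand).
Dnajb1: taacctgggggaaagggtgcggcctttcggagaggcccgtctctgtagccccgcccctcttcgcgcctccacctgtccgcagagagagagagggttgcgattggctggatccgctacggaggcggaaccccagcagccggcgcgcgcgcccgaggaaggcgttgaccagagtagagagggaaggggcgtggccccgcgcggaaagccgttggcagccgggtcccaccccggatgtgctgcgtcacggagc
Hspa1a: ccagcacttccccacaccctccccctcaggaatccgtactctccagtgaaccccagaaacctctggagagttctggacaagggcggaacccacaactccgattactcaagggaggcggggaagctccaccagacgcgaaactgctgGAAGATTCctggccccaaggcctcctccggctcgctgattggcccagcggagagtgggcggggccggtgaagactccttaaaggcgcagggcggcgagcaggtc
Hspa1b: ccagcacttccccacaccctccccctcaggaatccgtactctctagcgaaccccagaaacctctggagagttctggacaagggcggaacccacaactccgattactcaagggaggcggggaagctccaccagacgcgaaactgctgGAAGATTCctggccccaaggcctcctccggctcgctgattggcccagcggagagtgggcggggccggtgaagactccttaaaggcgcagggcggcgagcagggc

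The Hspa1a and Hspa1b windows differed at 3 of 250 bases, and each held the motif once, 104 bases before the start. The Dnajb1 window held none, which says only that these letters are not in it. Over all windows of this length, 12.8% (4218 of 32851) held the motif. Per gene, 14.5% (3932 of 27025) held it in a window, and of the heat shock list 10 of 20 genes did.

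Dnajb1, the HSP40 co-chaperone of HSP70, had 65, 252 and 970 TPM in control DMSO and 73.5, 96.8 and 144 TPM in control bortezomib. In H77L mice it had 77, 163 and 412 TPM under DMSO and 252, 832 and 1380 TPM under bortezomib. Control DMSO mice spread the most among the controls, 5 of 6 H77L bortezomib mice were above all H77L DMSO mice, and every one was above every control bortezomib mouse. The interaction of Dnajb1 was 3.36 ± 0.74 (adjusted p = 0.0814), with 2.11 in H77L (adjusted p = 0.0416, which held in 13 of the 24 fits without 1 mouse and was 0.109 without H77L DMSO replicate 4) and −1.25 in control (unadjusted p = 0.0241). In C118F mice, which carry a mutation of the second LIM domain and took no part in the interaction, the response of Dnajb1 was −0.34 (unadjusted p = 0.512).

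Hspa1b, an inducible HSP70, had 94.7, 482 and 903 TPM in control DMSO, 19.3, 126 and 167 in control bortezomib, 52.7, 323 and 1220 in H77L DMSO, and 572, 1390 and 2900 in H77L bortezomib. Its interaction was 4.32 ± 0.99 (adjusted p = 0.0814) and that of Hspa1a, chosen after its values were seen, 3.46 ± 0.89 (adjusted p = 0.0814). Reads of the 2 copies can be assigned to either, so their split is uncertain. For both copies 4 of 6 H77L bortezomib mice were above all H77L DMSO mice, and every one was above every control bortezomib mouse.

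Of 25 heat shock chaperones, 7 had an interaction above 0 and 1 below 0 at an unadjusted p under 0.05 (32.0% against 18.2% of all genes), and 3 were below an adjusted p of 0.1. The list's median interaction was 0.21 against −0.01 over all genes, made of a median of 0.30 in H77L and −0.01 in control mice. In C118F mice the median response of the list was 0.03. Whether cell isolation moved the heat shock genes was not tested. The summed level of the list was 10400 to 19200 TPM in H77L bortezomib and 6430 to 12000 TPM in the other 3 groups.

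Proteasome genes, which cells induce under proteasome inhibition through NRF1, had small differences. Of 33 subunits of the 20S and 19S particles, 7 had an interaction above 0 at an unadjusted p under 0.05 and 0 below (21.2%). Over all genes 9.48% were above 0 at that p, and 18.2% in either direction. A positive sign was seen in 28 of the 33, against 5390 of 11163 genes in all. The median of the 33 subunits was 0.18. With the length slope as a covariate 2 were above and 1 below (median 0.01), and with immediate early genes 1 and 1. Psmb6, a catalytic subunit, had 336, 443 and 496 TPM in control DMSO, 279, 365 and 459 in control bortezomib, 269, 292 and 310 in H77L DMSO, and 308, 377 and 413 in H77L bortezomib. H77L DMSO mice were all below control DMSO mice, while the genotypes overlapped under bortezomib. The interaction of Psmb6 was 0.60 ± 0.15 (adjusted p = 0.0814). Psmb5, the subunit bortezomib binds, was chosen after its values were seen and had an interaction of 0.39 (95% interval 0.04 to 0.74, adjusted p = 0.217), with a response of 0.27 in H77L and −0.12 in control mice. Psmc5, an ATPase of the base, had 0.38 (adjusted p = 0.128), and Pomp, the assembly chaperone of the core, 0.40 (adjusted p = 0.111). Among 17 assembly factors and regulators, 4 were above 0 and 0 below (23.5%, against 9.48% of all genes above 0 and 18.2% in either direction). Of 6 genes of the immunoproteasome and PA28, 0 had an unadjusted p under 0.05, and of 14 ubiquitin and segregase genes, 1 did. The median response of the 6 immunoproteasome and PA28 genes was −0.02 in H77L, −0.18 in control and −1.01 in C118F mice.

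Genes of the podocyte's own program were next. Synpo, the actin-associated protein of foot processes, had 1780, 2410 and 3200 TPM in control DMSO, 1930, 2210 and 2720 in control bortezomib, 286, 631 and 805 in H77L DMSO, and 788, 905 and 1150 in H77L bortezomib. Of the 6 H77L mice given bortezomib, 5 were above all H77L DMSO mice, and none reached a control mouse. The interaction of Synpo was 0.78 ± 0.26 (adjusted p = 0.124). Nphs1 (nephrin), chosen after its values were seen, had medians of 210 and 214 TPM in control and 167 and 195 TPM in H77L mice, with an interaction of 0.23 (95% interval −0.29 to 0.75).

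Of 26 slit diaphragm and foot process genes, 5 were above 0 and 8 below 0 at an unadjusted p under 0.05 (against 18.2% of all genes). With the length slope of each mouse as a covariate, 9 were above and 0 below, and of the 10 podocyte markers 7 were above and 0 below, against 3 and 1 without it. Itgb1, the integrin beta 1 chain that partners with Itga5, was among those below 0, at −0.49 (adjusted p = 0.108), with medians of 1940 and 2220 TPM in control and 5170 and 4250 TPM in H77L mice. Of 20 podocyte transcription factors, 0 were above and 3 below (median −0.09). Lmx1b itself had 44.8, 71.5 and 89.7 TPM in control DMSO, 54.8, 88.1 and 125 in control bortezomib, 89.9, 120 and 139 in H77L DMSO, and 86.7, 93.8 and 161 in H77L bortezomib. The H77L exchange changes 1 amino acid of a transcribed allele, so the level of Lmx1b does not check the labels. The interaction of Lmx1b was −0.53 (95% interval −1.05 to −0.02, adjusted p = 0.256).

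A list of 12 genes came from the study's own account of its sequencing of these mice, so these genes are no independent evidence. The study grouped Cdkn1c, Cldn5 and Pak1 with genes lowered in H77L and C118F mice with or without bortezomib. Cdkn1c, the cell cycle inhibitor p57, had 4150, 4970 and 5610 TPM in control DMSO, 4160, 4830 and 5570 in control bortezomib, 76.4, 240 and 285 in H77L DMSO, and 300, 449 and 557 in H77L bortezomib. The H77L groups did not overlap, the control groups did, and no H77L mouse exceeded 557 TPM. The interaction of Cdkn1c was 1.11 ± 0.30 (adjusted p = 0.0910), and its response was 1.09 in H77L (adjusted p = 0.0165, and 0.0546 without H77L bortezomib replicate 6) and −0.02 in control mice. Cldn5, a tight junction protein, had an interaction of 1.00 (adjusted p = 0.112) with H77L medians of 79.8 and 130 TPM against control medians of 1810 and 1590 TPM. Pak1, a kinase of the actin cytoskeleton, had 0.58 (adjusted p = 0.0976), with 124 to 183 TPM in H77L DMSO, 198 to 264 in H77L bortezomib and 719 to 1260 in all control mice.

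The other 9 of the 12 were below 0. Lgals3 (galectin 3) had the largest difference among them, −2.64 (95% interval −4.88 to −0.41, adjusted p = 0.195), with 43.7, 191 and 849 TPM in H77L DMSO and 5.66, 16.9 and 21.9 in H77L bortezomib, which did not overlap. Irf7, a transcription factor of the interferon response, had −1.12, and Serping1, the inhibitor of complement C1, −1.09. By qPCR the study found no significant change of Serping1. Mustn1, a small protein of muscle and cartilage, had −0.94, B2m, the light chain of MHC class I, −0.87, and Cd63, a tetraspanin of late endosomes, −0.32. Values for the actin-binding proteins Flna and Tagln were −0.17 and −0.07, with 95% intervals of −0.69 to 0.34 and −0.70 to 0.56. Both were higher in H77L than in control mice under DMSO (by 3.29 and 4.43) and under bortezomib (by 3.12 and 4.36).

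Matrix and growth factor genes lay mostly below 0. Of 31 collagen, laminin and matrix genes, 9 were below and 0 above 0 at an unadjusted p under 0.05 (29.0%). Over all genes tested, 8.77% were below 0 at that p. The list had a median of −0.51, made of −0.33 in H77L and 0.04 in control mice. Lamc1, the laminin gamma 1 chain of the glomerular basement membrane, had medians of 41.7 and 50.8 TPM in control and 105 and 71.1 TPM in H77L mice. The H77L groups of Lamc1 did not overlap, and its interaction was −0.93 ± 0.22 (adjusted p = 0.0814). Lama5, the laminin alpha 5 chain, had −0.94 (adjusted p = 0.110). Among 15 matrix proteases and inhibitors, 5 were below and 2 above (46.7%, against 18.2% of all genes). Timp2, an inhibitor of metalloproteinases, had 857 to 1130 TPM in all control mice, 2140 to 3400 in H77L DMSO and 1540 to 2050 in H77L bortezomib, with an interaction of −0.59 (adjusted p = 0.0814). Adamts4, an aggrecan-cleaving protease, had −2.18 (adjusted p = 0.114, and 0.412 with voom). For Adamts4, 1 H77L DMSO mouse reached 282 TPM against a group median of 22.3.

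Of 22 TGF-beta and YAP genes, 6 were below and 0 above (27.3% against 18.2% of all genes), and 21 of 22 had a negative sign, against 5773 of 11163 in all. Tgfb2 had 0.804, 1.19 and 7.07 TPM in control DMSO, 0.601, 2.24 and 2.90 in control bortezomib, 2.21, 7.49 and 50.4 in H77L DMSO, and 0.467, 1.07 and 2.90 in H77L bortezomib. In H77L mice under bortezomib its level did not exceed that of control mice. The interaction of Tgfb2 was −2.26 ± 0.67 (adjusted p = 0.101), and that of Tgfb1 −1.08 ± 0.32 (adjusted p = 0.0994). Of 37 actin and contractile genes, 3 were above and 6 below (24.3%, against 18.2% of all genes, median −0.11). Vcl (vinculin) was among the 6, at −0.75 (adjusted p = 0.0814). Rara, a retinoic acid receptor, had −1.13 (adjusted p = 0.0814), the only member of its list of 10 with an unadjusted p under 0.05. The mesangial and parietal markers given above lay in the direction of the matrix, TGF-beta and actin genes, and their part in these results was not tested.

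Genes of antigen presentation shared this direction. Of 16 MHC class I genes, 10 were below 0 and 0 above at an unadjusted p under 0.05 (62.5%). Over all genes tested, 8.77% were below 0 at that p. The median interaction was −0.44, made of a median response of −0.25 in H77L and 0.08 in control mice. The list had a median response of −0.63 in C118F mice. B2m had 1230, 1530 and 1860 TPM in control DMSO, 1160, 1590 and 1840 in control bortezomib, 3820, 5090 and 20300 in H77L DMSO, and 2670, 2840 and 5530 in H77L bortezomib. Tapbp, the bridge between the peptide transporter and MHC class I, had −0.43 (adjusted p = 0.114), with H77L groups that did not overlap, and Erap1, which trims peptides, −0.46 (adjusted p = 0.122). Of 34 interferon-induced genes, 11 were below and 0 above (32.4%, against 8.77% of all genes below 0, median −0.40). Their median response was −0.49 in H77L, −0.04 in control and −1.50 in C118F mice. Gbp2, a GTPase of host defence, had 32.3 to 65.8 TPM in control mice, 91.3, 105 and 440 in H77L DMSO and 56.2, 74.1 and 86.6 in H77L bortezomib, with an interaction of −1.30 (adjusted p = 0.0965).

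**Figure D4:**
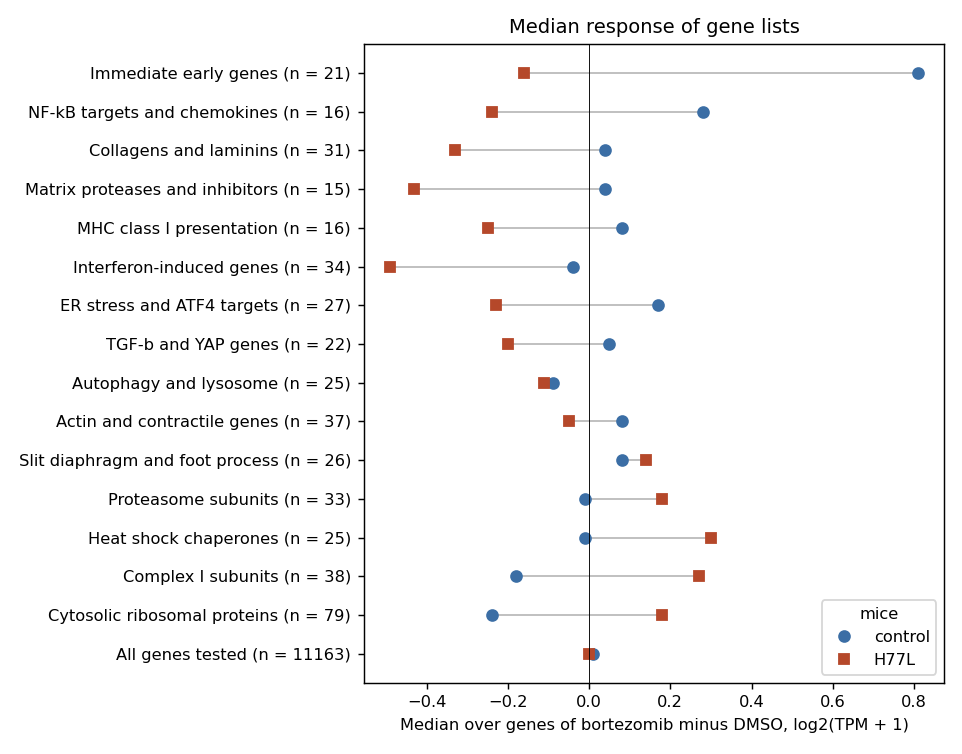
Median over the tested genes of a list of the bortezomib minus DMSO difference, on log2(TPM + 1), in control (blue circles) and H77L mice (red squares), with the number of genes in brackets. Among the lists drawn, the widest gap is that of the immediate early genes, 0.81 in control and −0.16 in H77L, while all genes tested lie at 0.01 and 0.00. The lists of complex I and ribosomal proteins were chosen after their values were seen.

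In immediate early genes the control mice made the larger part of the difference. All 21 had a negative interaction, 8 at an unadjusted p under 0.05 (38.1%, against 8.77% of all genes below 0). The median interaction was −0.93. The median response was 0.81 in control, −0.16 in H77L and 0.16 in C118F mice. Zfp36, which promotes decay of cytokine mRNAs, had 329, 1770 and 2230 TPM in control DMSO, 2020, 3060 and 3620 in control bortezomib, 2650, 4560 and 5150 in H77L DMSO, and 2030, 2810 and 5160 in H77L bortezomib. The lowest level was that of control DMSO replicate 1, and 5 of 6 control bortezomib mice were above all control DMSO mice. The interaction was −1.73 for Zfp36 (adjusted p = 0.0961) and −0.63 for Jund (adjusted p = 0.0976), an AP-1 subunit. For Fos, its partner, chosen after its values were seen, the interaction was −0.82 (adjusted p = 0.299), and its level reached 20500 TPM. The summed level of the 21 genes was 12800 to 65400 TPM, and these genes are known to respond to cell isolation. Whether the sort moved them was not tested. With the mean of these genes as a covariate, added after the data were seen, 1089 genes instead of 2037 had an unadjusted p under 0.05 in the interaction.

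Of 16 NF-κB targets and chemokines, 8 were below and 1 above (56.2%, against 18.2% of all genes). Their medians were 0.28 in control and −0.24 in H77L mice. With the covariate of immediate early genes, 1 was below and 2 above. Cx3cl1, a membrane-bound chemokine, had −0.78 (adjusted p = 0.111). Gadd45b, a stress gene of the apoptosis and p53 list, had −1.37 (adjusted p = 0.114), with medians of 220 and 400 TPM in control and 676 and 562 TPM in H77L mice. In that list of 19 genes, 3 were below and 0 above (15.8%, against 8.77% of all genes below 0 and 18.2% in either direction). Cdkn1a, the cell cycle inhibitor p21, was one of them at −1.62 (adjusted p = 0.185), with 31.4, 49.5 and 258 TPM in H77L DMSO and 7.35, 17.7 and 26.6 in H77L bortezomib.

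Genes of the unfolded protein response were negative in 23 of 27 cases, against 5773 of 11163 genes in all. Of 27 genes of ER stress and of ATF4, 6 were below 0 and 0 above at an unadjusted p under 0.05 (22.2%). Over all genes 8.77% were below 0 at that p, and 18.2% in either direction. The medians of the list were −0.23 in H77L and 0.17 in control mice. The median interaction of −0.38 became −0.04 with the length slope as a covariate. The 3 sensors of ER stress were among the 6. Ern1, which encodes IRE1 and was chosen after its values were seen, had −0.71 (adjusted p = 0.172). Atf6 had medians of 38.0 and 42.2 TPM in control and 53.1 and 41.0 TPM in H77L mice (interaction −0.50, adjusted p = 0.101). Eif2ak3, which encodes PERK, had 21.4 and 25.7 TPM in control and 34.4 and 26.8 TPM in H77L mice (interaction −0.70, adjusted p = 0.117).

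Of 22 NRF2 and oxidative stress genes, 2 were above and 1 below (13.6%, against 18.2% of all genes). Gsta4, a glutathione transferase, had 276, 449 and 702 TPM in H77L DMSO and 606, 846 and 1560 in H77L bortezomib, with an interaction of 0.98 (adjusted p = 0.114) and control medians of 746 and 723 TPM. Of 25 autophagy and lysosome genes, 5 were below and 0 above. Grn (progranulin) had 117 to 179 TPM in all control mice, 234 to 294 in H77L DMSO and 165 to 207 in H77L bortezomib, with an interaction of −0.52 (adjusted p = 0.0814). Of 6 cell cycle inhibitors and cyclins, 1 was above, Cdkn1c (16.7%, against 18.2% of all genes). Of 16 keratins and injury genes, 5 were below and 0 above (31.2%, against 8.77% of all genes below 0). Crct1, a gene of the cornified epithelium, was at 0 TPM in every control bortezomib mouse and at most 1.24 TPM in control DMSO. In H77L mice Crct1 stood at 39.8, 375 and 865 TPM under DMSO and at 2.60, 14.2 and 53.4 TPM under bortezomib. Its interaction was −3.76 (adjusted p = 0.0814, and 0.747 with voom). S100a6, a calcium-binding protein, had −1.99 (adjusted p = 0.110).

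The effects common to both genotypes were taken as the mean of both responses. One gene passed, 0.00896% of those tested, and 1127 (10.1%) had an unadjusted p under 0.05. Gas1, a membrane protein that binds hedgehog ligands and arrests growth, rose by 1.05 ± 0.17 (standard error, adjusted p = 0.0307, limma). It had 599, 1030 and 1670 TPM in control DMSO, 1570, 1770 and 3280 in control bortezomib, 324, 456 and 624 in H77L DMSO, and 510, 1030 and 1250 in H77L bortezomib. The rise was 1.00 in control and 1.09 in H77L mice, and the interaction was 0.09 with a 95% interval of −0.62 to 0.81. In the independent C118F mice the difference was 0.92 (unadjusted p = 0.00742). Gas1 kept its call in 12 of the 24 fits without 1 mouse, where the adjusted p ran from 0.00304 to 0.0919.

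The next genes did not pass. Ccdc86, a nucleolar protein, had a mean response of 0.62 (adjusted p = 0.0507), Sowahd, an ankyrin repeat protein, 0.82 (0.0565), and Gnl2, a GTPase of ribosome assembly, 0.33 (0.0813). Gmppb, which makes GDP-mannose, had 0.44 (0.0813). In the other direction stood Spire2, an actin nucleator, at −0.82 (0.0565), Crct1 at −2.22 (0.0813), Itga7, the laminin-binding integrin alpha 7 chain, at −0.80 (0.0813), the collagen gene Col5a3 at −1.34 (0.0813) and Mtfmt, which formylates the mitochondrial initiator tRNA, at −0.48 (0.0813). For Crct1, Itga7, Spire2 and Col5a3 the H77L response (−4.10, −1.28, −1.20 and −2.14) exceeded the control response (−0.34, −0.33, −0.43 and −0.54), and no control mouse exceeded 3.81 TPM in any of the 4. For Mtfmt both responses were about equal, at −0.52 in H77L and −0.45 in control mice. With voom the adjusted p of the mean response was 0.0254 for Ccdc86. For the other genes of this paragraph that adjusted p ran from 0.11 for Sowahd to 0.738 for Crct1.

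The H77L and control responses share no mouse, so the one can be read in the genes that the other called. The 99 genes that fell in H77L had a median response of −0.89 there and of 0.00 in control mice. In control mice 49 of the 99 were negative (49.5%, against 48.4% of all genes). Some of the 99, such as Crct1 and Gys2, lay near 0 TPM in control mice and could hardly fall there on log2(TPM + 1). For such genes a flat control response follows from their level, and their number among the 99 was not counted. Only 4 of the 99 had an unadjusted p under 0.05 in control (4.04%, against 12.1% of all genes), all positive. In C118F mice the same 99 genes had a median of −0.25, and 76 were negative (76.8%, against 38.0% of all genes). The 51 genes that rose in H77L had a median of 0.51 there, −0.05 in control and 0.15 in C118F mice, where 39 were positive, against 6920 of 11163 in all. Across 11163 genes the Pearson correlation of the H77L response was −0.05 with the control response and 0.34 with the C118F response. Genes of 1 fit share their mice, so these are descriptions.

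Of the 99 genes, 34 had an unadjusted p under 0.05 in C118F mice (limma), against 1215 of 11163 in all. The median ratio of the C118F to the H77L response was 0.34 in the 99. Examples in C118F mice were Csf1 with −1.05 (unadjusted p = 0.0217), Tgfb2 with −1.45 (0.0123) and Adamts4 with −1.86 (0.00743). Others were Crct1 with −2.06 (0.0156), S100a6 with −1.22 (0.0151) and Itga5 with −0.50 (0.123). Crct1 had a median of 697 TPM under DMSO and 84.5 TPM under bortezomib in C118F mice. Cdkn1c, which rose in H77L, had −0.19 (0.495) in C118F mice, with medians of 222 and 154 TPM. The differences between the H77L and C118F responses had 0 genes at an adjusted p under 0.05 (limma on all 35 mice). At an unadjusted p under 0.05 they had 892 of 11306 genes (7.89%). Differences between the C118F and control responses had 0 genes as well (704 at an unadjusted p under 0.05, 6.23%). The C118F bortezomib group held 5 mice, and its replicate 2 had 5267886 reads, the fewest of the 35 mice. Without that mouse both comparisons again had 0 genes at an adjusted p under 0.05.

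Gene length moved with the interaction. Over 10 classes of equal size, the shortest genes (median 1180 bases) had a median interaction of 0.25 and the longest (12437 bases) of −0.17. The 143 genes above 0 at an adjusted p under 0.1 had a median length of 2099 bases, the 107 below 0 of 5553 bases, and all genes of 4380 bases. In each mouse the slope of log2(TPM + 1) per 10-fold of gene length was −0.979 ± 0.141 (SD, n = 6) in H77L bortezomib, −0.845 ± 0.0644 in H77L DMSO, −1.08 ± 0.257 in control bortezomib and −1.30 ± 0.194 in control DMSO. The bortezomib minus DMSO difference of the slope was −0.13 in H77L mice and 0.23 in control mice. Exact permutation tests gave 2-sided p = 0.0693 in H77L and p = 0.11 in control mice. For the H77L minus control difference of these values, −0.36, the exact permutation test gave p = 0.0199. The slopes come from the same values as the interaction and were examined after its length trend was seen, so they describe that trend and do not test it.

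**Figure D5:**
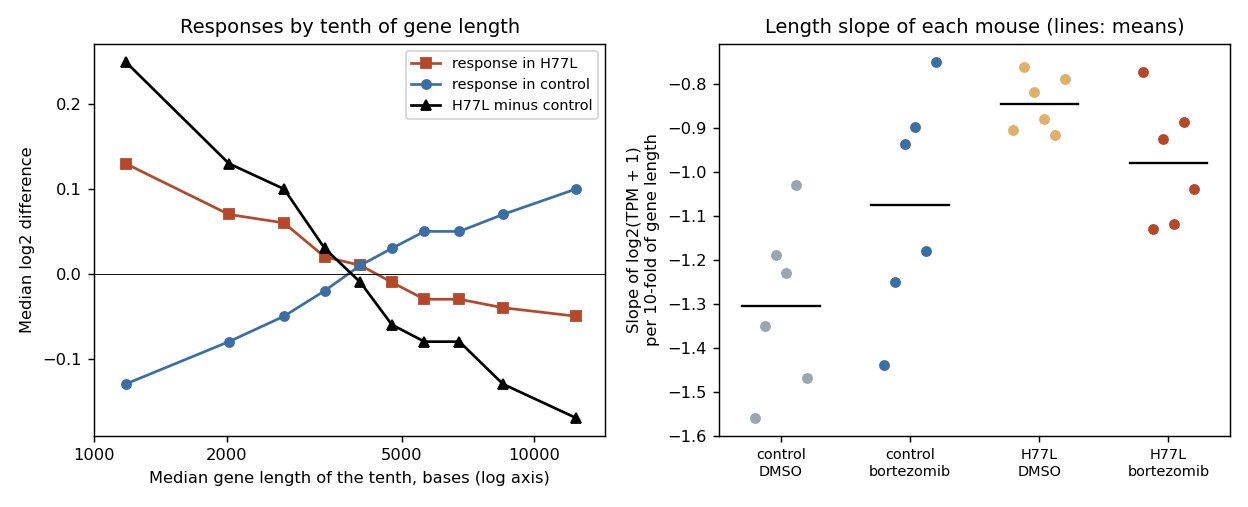
Left, median log2 difference (vertical axis) of the H77L response, the control response and the interaction over 10 classes of gene length, against the median length of each class in bases (log axis), where the interaction runs from 0.25 in the shortest to −0.17 in the longest. Right, length slope of each of the 24 mice by group, with a line at the mean, from −1.30 in control DMSO to −0.845 in H77L DMSO.

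Families of short genes had high shares, against 9.48% of all genes above 0 at an unadjusted p under 0.05. They were chosen after their values were seen, so they serve as description only. Of 38 complex I subunits, 31 had an interaction above 0 at an unadjusted p under 0.05 and 0 below (median 0.44, with 0.27 in H77L and −0.18 in control mice). For cytosolic ribosomal proteins it was 59 of 79 (median 0.43) and for mitochondrial ribosomal proteins 33 of 78 (median 0.32). With the length slope of each mouse as a covariate, these counts were 6, 11 and 5, and the total over all genes fell from 2037 to 949. With that covariate 7 heat shock genes were above 0 and 0 below (median 0.22). MHC class I had 1 gene below, ER stress 1 and the TGF-beta and YAP list 3. The median interactions of these 3 lists were −0.32, −0.04 and −0.13, against −0.44, −0.38 and −0.33 without the covariate. The slope had its own H77L minus control difference (−0.36), so the covariate and the interaction are not independent. The collagen and laminin list then had 6 below and 3 above. The interactions of Itga5 (−1.63), Socs3 (−2.24), Dnajb1 (4.08), Hspa1b (4.88) and Cdkn1c (0.89) kept their sign, and none of them passed an adjusted p of 0.05. Of 61 interactions of named genes, 21 became smaller by over 1.5 times, among them Lmx1b (−0.04), Psmb5 (0.07), Psmb6 (0.27), Lama5 (−0.37), Eif2ak3 (−0.30), Atf6 (−0.19) and Erap1 (−0.18), and 1 changed sign, Flna (0.15). What sets the length slope was not tested.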

How the data were processed

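RNA-seq of sorted podocytes was deposited as 1 table of TPM values (transcripts per length, scaled by the authors so that every mouse sums to 1000000). Per the labels and the study's methods, reads were trimmed with Trim Galore 0.6.7, aligned with STAR and counted with featureCounts 1.6.3. Library depth was recovered from the steps of low TPM values, which gave whole reads (tolerance 0.0001) for 19067 of 23943 genes (79.6%). Gene names and coordinates came from GENCODE on GRCm39, where 32776 of 33292 identifiers were found.

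Groups followed the labels. log2(TPM + 1) of genes above 1 TPM in every mouse of at least 1 group was fitted with group means in limma 3.58.1 (R 4.3.3), with empirical Bayes moderation and trend, and p-values were adjusted by Benjamini-Hochberg over all genes tested. Fold changes on this scale understate the change of low genes. C118F values came from a fit of all 35 mice. The procedure was tested on simulated data. Alternatives were other pseudocounts (0.1, 0.5), filters, scalings, covariates and weights, voom on the recovered reads, and leaving out each mouse. Replicates are single mice.

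The comparison and the gene lists were chosen with earlier results of these data known. Named genes were the 10 of lowest interaction p in each direction, the 5 of lowest p in each direction of the mean response, the genes the study names, and of each list the 2 of lowest p. Predicted genes were counted, not named, and some genes the rule names are not reported here.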

Additional observations from a re-analysis of the deposited data

Results flagged for a closer look

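Single mice stood apart from the other 5 of their group by Dixon's test in 21 of 280 groups of 6 values examined. Chance flags about 1 in 20 groups, and the cause was not tested.

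H77L DMSO replicate 6 accounted for 6 of them. It had B2m at 20300 TPM (group median 5090) and Gbp2 at 440 TPM (105), both above the other mice, and Cdkn1c at 76.4 TPM (240), Cldn5 at 25 TPM (79.8), Synpo at 286 TPM (631) and Fos at 7960 TPM (14700), all below them. In the other H77L DMSO mice, replicate 1 had Cfap97d1 at 0.491 TPM where the other 5 were at 0, replicate 2 had Psmc5 at 326 TPM (381) and replicate 5 had Itgb1 at 4280 TPM (5170).

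Among H77L bortezomib mice, replicate 1 had Gas1 at 510 TPM (group median 1030) and Lmx1b at 161 TPM (93.8), and replicate 2 had Ern1 at 7.35 TPM (13.4). Among control bortezomib mice, replicate 6 had Tmed1 at 89.2 TPM (110), Gadd45b at 1230 TPM (400) and Itgb1 at 2850 TPM (2220). Replicate 1 of that group had S100a6 at 97.5 TPM (24.9) and Fos at 11400 TPM (19000), and replicate 5 had Irf7 at 0.746 TPM (1.52). Among control DMSO mice, replicate 1 had Serping1 at 267 TPM (131) and Tgfb2 at 7.07 TPM (1.19), and replicate 5 had Washc5 at 50.7 TPM (38.3).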

How the results depend on the processing

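The number of genes at an adjusted p under 0.05 in the interaction was 0 as reported, 2 with a filter of TPM above 5, 2 with quantile normalization, 1 with trimmed-mean scaling, 2 with robust moderation, 7 with Xist and 6 with proximal tubule markers as a covariate, and 0 to 275 without 1 mouse. Genes at an unadjusted p under 0.05 numbered 949 with the length slope and 1089 with the immediate early genes as a covariate, against 2037. The H77L response had 82 genes with a pseudocount of 0.1, 60 without a filter, 57 with all 35 mice, 350 with array weights and 9 to 234 without 1 mouse, against 150. The control response had 0 to 3 without 1 mouse. The mean response, with 1 gene, had 0 without a filter, with trimmed-mean scaling, with mouse number, Xist or immediate early genes as a covariate and without the 4 mice of lowest array weight, 2 with quantile normalization, robust moderation, tubule markers or voom, 3 with a filter of TPM above 5 or array weights, 10 with the length slope, and 0 to 19 without 1 mouse. C118F minus control had 0 to 1. The interaction changed sign for Flna (−0.17) to 0.15 with the length slope and 0.14 with immediate early genes, for Fos (−0.82) to 0.17 with immediate early genes, and for Tagln (−0.07) to 0.01 with mouse number, 0.04 with voom, 0.08 without the 4 mice, and −0.22 to 0.03 without 1 mouse. Genes at an adjusted p under 0.1 in the interaction (250) ran from 0 to 1050 without 1 mouse. Of 61 interactions of named genes, 21 became smaller by over 1.5 times with the length slope. Since none passed, staying on the same side of the threshold says little of their stability. The length slope, the immediate early genes and the 4 mice were alternatives chosen after seeing the data. The cause of these shifts was not tested. No paired analysis was possible because the mouse numbers in the labels are not shared between groups.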
